A study of Saccharomyces cerevisiae with 19 samples.

Results

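Sir3 occupancy was compared between dot1 cells and DOT1 cells of budding yeast that overexpressed SIR3 and had been released from nicotinamide. The levels compared came from 4 of the 19 arrays of the study, 2 per genotype, chosen by their labels alone. In the dot1 cells the Sir3 level, centred on the array median, was lower at the silent mating cassettes and the outermost subtelomeres, where Sir3 is normally found. The fall in the outermost subtelomeres depended on how the arrays were scaled. At the cassettes, a difference in array scale and a difference in Sir3 could not be told apart. Sir3 was higher over particular stretches of chromatin 20 to 50 kb from some chromosome ends, and over the bodies of many long genes deep inside the chromosomes. Of 4065 genes tested, 1135 were higher in dot1 (27.9% of genes tested) and 947 were lower (23.3%), 51.2% in all, by limma with Benjamini-Hochberg adjustment at 0.05.

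Dot1 is the methyltransferase of lysine 79 of histone H3, a mark carried by most transcribed chromatin. Sir3 is the nucleosome-binding subunit of the SIR complex. It binds the face of the nucleosome that holds lysine 79 and prefers it unmethylated, next to a histone H4 tail that Sir2 has deacetylated. Nicotinamide inhibits the deacetylase Sir2, so that silent chromatin is lost in its presence and forms again when it is washed out.

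The dot1 strain, yAT3183, carried dot1::KANMx. The DOT1 strain, yAT1254, had the intact gene. Both carried sir3::GPD-SIR3(NAT), in which the strong GPD promoter drives SIR3, together with rap1::GFP-RAP1(LEU2) and ppr1[delta]::HIS3. They also shared a marked telomere at the left end of chromosome 7, written adh4::URA3-4xUASG-(C1-3A)n, and the ade2-1::ADE2 allele. Cells of both strains were in exponential growth 8 h after transfer from rich medium (YPD) with 5 mM nicotinamide (NAM) to fresh YPD. Each genotype is 1 strain, and nothing in the labels says that its 2 arrays came from separate cultures. The limma p-values measure only the spread between arrays of the same group, pooled over all groups of the study with replicate arrays. That spread may be technical, and it is not particular to the dot1 and DOT1 arrays. The exact permutation p-values use the dot1 and DOT1 arrays alone. 2 further pairs of arrays are given beside the results for orientation, without a test: strain yAT1254 in steady growth (steady pGPD-SIR3) and strain yAT191 with SIR3 under its own promoter (WT). Neither had seen NAM, and both belong to an earlier deposit, so that NAM release and deposit cannot be told apart. Their median ratios before centring were 0.14 and 0.40 in steady pGPD-SIR3 and 0.098 and 0.029 in WT. Those of the other arrays were 0.90 and 0.88 in dot1 and 0.94 and 0.92 in DOT1.

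Each array set the DNA precipitated with an antibody to Sir3 (Cy5) against whole cell extract (Cy3). A Sir3 level below is the log2 of that ratio minus the array's median over all chromosomal probes, so that 0 is the typical probe of the array, and a difference is dot1 minus DOT1 on that log2 scale. The arrays held 41480 chromosomal probes at a median spacing of 257 bp. 40891 and 41169 of them were measured on the dot1 arrays, against 40795 and 41092 on the DOT1 arrays. The correlation across probes was 0.976 between the dot1 arrays and 0.962 between the DOT1 arrays, against 0.566 to 0.608 between arrays of different genotype. The probes over DOT1 did not show the deletion. Their mean level was 0.06 and -0.33 on the arrays labelled dot1, where 4 and 5 of 5 probes were measured, and -0.16 and 0.07 on the arrays labelled DOT1, where all 5 were measured. By contrast, from the left end of chromosome 7 to ADH4, where both strains carry the marked telomere, 5 of 48 probes were measured on each dot1 and DOT1 array. The probes over DOT1 thus did not bear out the label, and the dot1 genotype rests on the label alone.

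The silent loci came first. At HMR, the silent cassette on the right arm of chromosome 3, the Sir3 level over up to 13 probes was 3.27 and 4.02 in dot1, against 4.59 and 5.87 in DOT1. At HML, its counterpart on the left arm, it was 3.39 and 4.20 in dot1 (up to 8 probes), against 4.79 and 6.16 in DOT1. Both dot1 arrays lay below both DOT1 arrays at each cassette, with differences of -1.59 at HMR and -1.68 at HML. The exact permutation test gave p = 0.333 in each case, the smallest value that 2 arrays against 2 can give. The same order held at the subtelomeric gene YFR057W, read by 1 probe, with 3.43 and 4.15 in dot1, against 5.13 and 6.44 in DOT1. In the ribosomal DNA, where Sir2 acts without the rest of the complex, the level was 1.58 and 1.5 in dot1 (up to 7 probes), against 2.36 and 3.00 in DOT1. Probes of URA3, a gene carried by the marked telomere on chromosome 7, stood at 2.72 and 3.39 in dot1, against 4.21 and 5.20 in DOT1. Whether they also read another copy of URA3 was not tested. These levels are averages over a culture, so fewer cells with Sir3 at a locus and less Sir3 per cell cannot be told apart. Whether the arrays differ in scale or the cells in Sir3 cannot be told apart from these values either.

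Since the silent cassettes themselves were lower in dot1, levels elsewhere are also given as a percentage of the array's own HMR level. This is a share of a log2 level, not of an amount of DNA, and it was added after the values had been seen. Away from the ends the dot1 arrays were the more uneven. The spread of the probes lying over 50 kb from every end (internal probes), as a scaled median absolute deviation (MAD), was 0.541 and 0.552 in dot1, against 0.327 and 0.268 in DOT1. The 99th percentile of those probes was 2.07 and 2.30 in dot1, against 1.41 and 1.5 in DOT1. The 5th percentile was -0.69 and -0.70 in dot1, against -0.45 and -0.39 in DOT1, so that both tails were wider in dot1. Whether the lower level at HMR and the wider spread elsewhere had a common source was not tested.

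The counts of genes followed the scale chosen. With levels divided by the array's MAD 801 genes were higher and 536 lower, with quantile normalization 658 and 436, and with centring on the array's 25th percentile 1517 and 406. With any 1 of the 4 arrays left out, 959 to 971 genes were higher and 574 to 630 lower.

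Within 5 kb of an end Sir3 stood at 94.8% and 91.8% of the HMR level in dot1, against 96.8% and 92.1% in DOT1. At 5 to 10 kb the shares were 69.9% and 68.8% in dot1, against 74.0% and 69.5% in DOT1. Relative to HMR, the genotypes thus differed within 10 kb of the ends by less than the DOT1 arrays differed from each other. At 20 to 30 kb the shares were 30.0% and 30.9% in dot1, against 15.8% and 13.9% in DOT1. At 30 to 50 kb they were 17.5% and 17.7% in dot1, against 4.39% and 3.77% in DOT1, with no overlap between genotypes in either zone. Averaged over all ends, the level first fell below 0.5 at 39 and 42 kb in dot1, against 26 and 27 kb in DOT1. It first fell below 1 at 22 and 32 kb in dot1, against 22 and 23 kb in DOT1, where the arrays overlapped. Between 29 and 31 kb both DOT1 lines were back over 0.5, at 0.63 and 0.74 at 30 kb. The dot1 lines also returned over 0.5. Replicate 1 did so at 40 and 41 kb (0.53 and 0.52). Replicate 2 did so at 46 kb (0.54) and at some distances beyond, the last at 64 kb (0.53). In steady pGPD-SIR3 cells the level first fell below 0.5 at 34 kb on both arrays, and in WT at 23 and 20 kb.

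**Figure D1:**
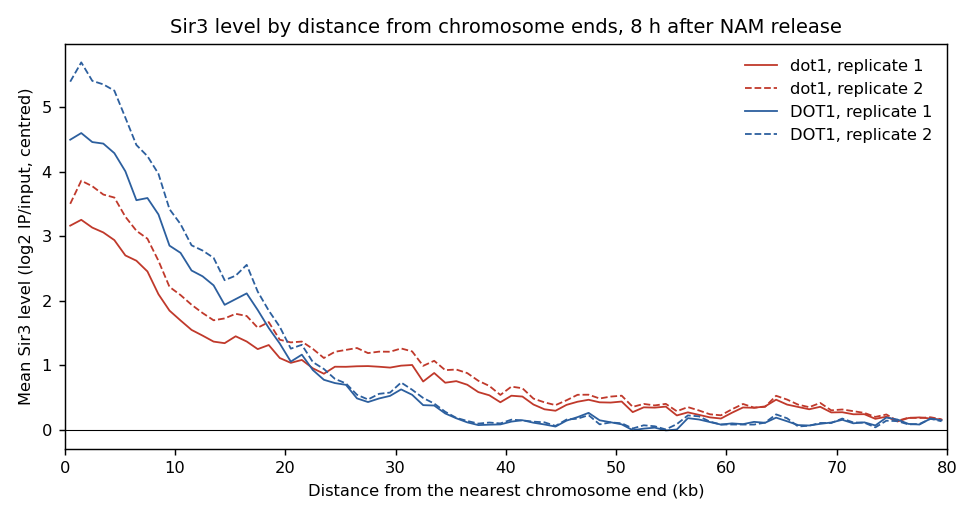
Mean Sir3 level (log2 ratio minus the array median, y axis) by distance from the chromosome end (kb, x axis), one line per array, over all ends. The dot1 lines start below the DOT1 lines and stay above 0.5 until 39 and 42 kb, where the DOT1 lines first pass it at 26 and 27 kb.

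The zones of single chromosome ends showed the same turn. Of 144 zones with 3 probes or more, 34 were higher in dot1 (23.6% of zones tested) and 49 were lower (34%), which makes 57.6% of zones tested, by limma with Benjamini-Hochberg adjustment at 0.05. Within 5 kb of an end 7 of 10 zones fell and limma called 0 higher, with 0 higher also at an unadjusted p under 0.05. At 5 to 10 kb 12 of 21 fell and 0 were higher, again with 0 at an unadjusted p under 0.05. At 10 to 15 kb 10 of 22 fell and 4 rose, and at 15 to 20 kb 11 of 28 fell and 3 rose. At 20 to 30 kb the balance was the other way, with 10 of 31 higher and 4 lower, and at 30 to 50 kb 17 of 32 were higher and 5 lower. The balance at 20 to 30 kb was lost with division by the internal MAD (7 higher, 6 lower, median -0.60 in MAD units) and with quantile normalization (11 and 11, median -0.03), while at 30 to 50 kb these gave 14 higher with 6 lower and 15 higher with 7 lower. With quantile normalization 3 of the 10 zones within 5 kb were lower and 1 was higher, with a median of -0.13. The falls nearest the ends also moved with the level of the array at HMR. With every array divided by its HMR level, 1 of the 10 outermost zones was lower and 0 were higher, while 20 of 32 zones at 30 to 50 kb were higher and 6 lower. Over all distances that scale gave 47 zones higher and 31 lower, 25th percentile centring gave 44 and 44, and division by the internal MAD gave 27 and 69. Lower zones numbered 22 without DOT1 array 2 and 26 without dot1 array 1.

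The largest gains lay on chromosomes 13 and 2. At the right end of chromosome 13 the zone at 20 to 30 kb held 2.76 and 3.28 in dot1, against 0.31 and 0.24 in DOT1 (31 probes). The difference was 2.75 ± 0.14 (SE), with an adjusted p of 3.56e-07 by limma. At the left end of chromosome 2 the zone at 15 to 20 kb held 2.58 and 2.99 in dot1, against 0.16 and 0.21 in DOT1. Both zones stood near the array median in DOT1. In dot1 they stayed below HMR, which held 3.27 and 4.02 on the same arrays. The mean of the zone on chromosome 13 was 0.07 in steady pGPD-SIR3 and 0.02 in WT, and that of the zone on chromosome 2 was 0.07 in steady pGPD-SIR3 and -0.01 in WT. At the left end of chromosome 13 the zone at 30 to 50 kb held 2.22 and 2.52 in dot1, against -0.03 and -0.01 in DOT1 (68 probes). Its neighbours at 20 to 30 kb and 15 to 20 kb rose by 2.37 and 1.97, and the zone at 20 to 30 kb on the left end of chromosome 2 rose by 2.0 on the log2 scale.

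The largest losses lay in zones that overexpressed SIR3 fills in steady growth. On the left arm of chromosome 15, in the zone at 10 to 15 kb, Sir3 stood at 1.91 and 2.18 in dot1, against 4.54 and 5.65 in DOT1. The difference was -3.05 ± 0.44 (SE), with an adjusted p of 0.000333 by limma. The next zone inwards, at 15 to 20 kb, held 0.09 and 0.25 in dot1, against 2.64 and 3.23 in DOT1, so that in dot1 it was back near the array median. Steady pGPD-SIR3 arrays held 5.34 and 4.74 there, and WT arrays 0.91 and 0.30. The other zones with the largest falls were at 5 to 10 kb and 10 to 15 kb on the right end of chromosome 6 (-2.41 and -2.74), at 5 to 10 kb on the left end of chromosome 1 (-2.49) and at 10 to 15 kb on the right end of chromosome 5 (-2.46).

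The length of chromatin covered by Sir3 depended on where the line was drawn. Bins of 1 kb within 50 kb of an end were called covered above the array's own internal median plus 3 scaled MADs, which set a level of 1.54 and 1.56 in dot1, against 0.91 and 0.73 in DOT1. By that rule 416 and 466 kb of 1295 kb were covered in dot1, against 400 and 458 kb in DOT1 (441 ± 35.4 and 429 ± 41.0 kb, SD, n = 2 each; exact permutation p = 0.667). The arrays of the genotypes overlapped. With the same level of 1 for every array, 567 and 638 kb were covered in dot1, against 388 and 399 kb in DOT1. That difference of 209 kb had no overlap and the smallest exact permutation p the design allows, 0.333.

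The ends did not move together. Of 32 ends, by each array's own level, 10 had a longer covered length in dot1, 18 a shorter one and 4 overlapped. With the level of 1, 19 were longer, 10 shorter and 3 overlapped. 10 ends were longer by both rules and 10 were shorter by both, while 6 were shorter by the first and longer by the second. By each array's own level, the left end of chromosome 13 was covered over 39 and 40 kb in dot1, against 7 and 7 kb in DOT1. The left end of chromosome 3 was covered over 43 and 44 kb in dot1, against 23 and 22 kb in DOT1. The left end of chromosome 2 had 26 and 27 kb in dot1, against 6 and 9 kb in DOT1, and the right end of chromosome 13 had 24 and 28 kb in dot1, against 8 and 12 kb in DOT1. These 4 ends were among the 10 that were longer by both rules. The left end of chromosome 1 went the other way, with 8 and 8 kb in dot1, against 23 and 26 kb in DOT1. The left end of chromosome 15 had 18 and 18 kb in dot1, against 26 and 30 kb in DOT1, and the left end of chromosome 11 had 10 and 11 kb in dot1, against 21 and 23 kb in DOT1. These ends shared 1 array per replicate and were not tested singly.

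**Figure D2:**
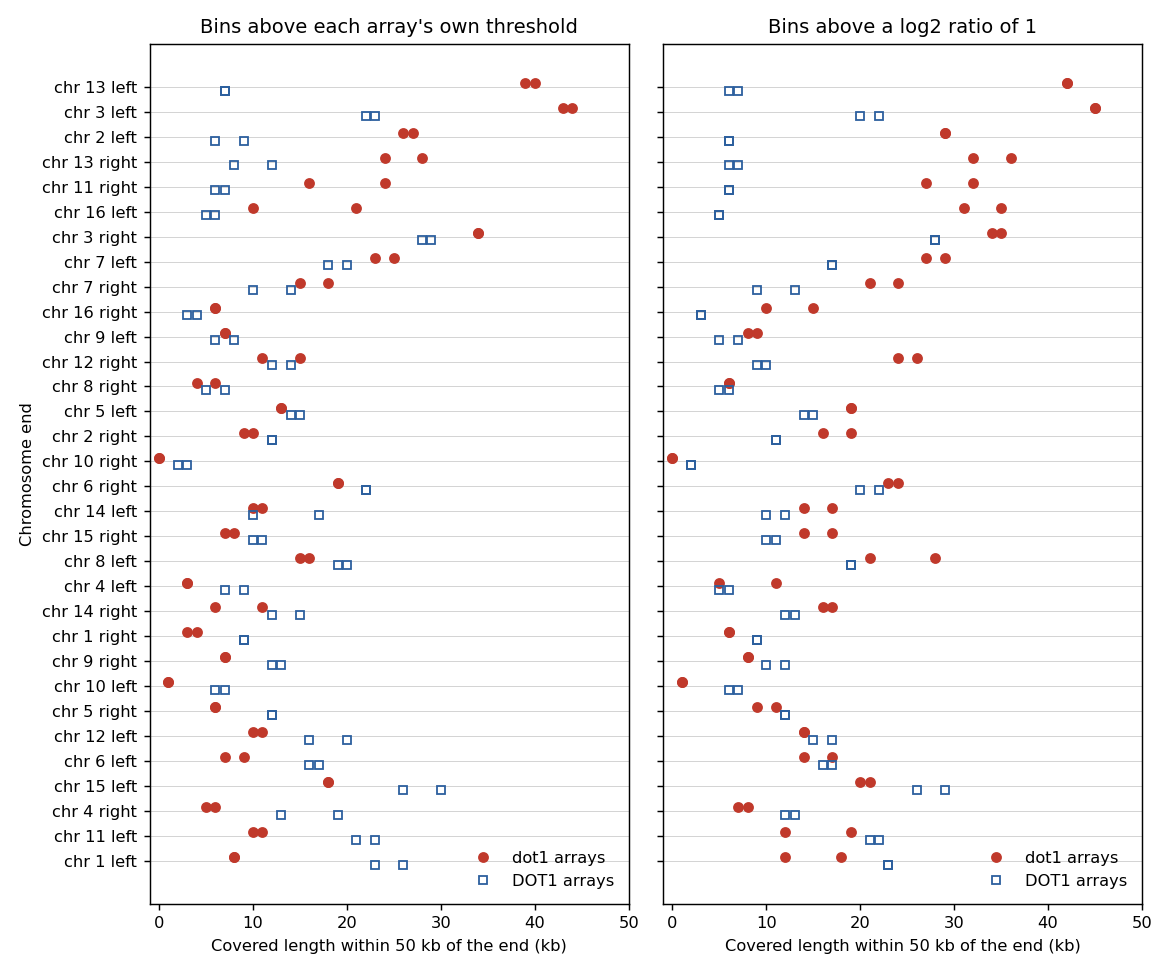
Covered length (kb, x axis) of each of the 32 chromosome ends (y axis), each point 1 array, with each array's own level in one panel and a common level of 1 in the other. The left end of chromosome 13 has 39 and 40 kb in dot1 against 7 and 7 kb in DOT1 by the first rule, and the left end of chromosome 1 has 8 and 8 kb against 23 and 26 kb.

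Among the 401 tested genes within 50 kb of an end, 171 were higher in dot1, with a median difference of 1.19, and 67 were lower, with a median of -0.92. Within 10 kb 2 of 21 were higher and 9 lower (median -1.09), and at 10 to 20 kb 13 of 54 were higher and 17 lower. Within 10 kb the median turned to 0.19 with quantile normalization (2 higher, 3 lower) and to 0.09 on the HMR scale (3 higher, 2 lower). Division by the internal MAD kept it below 0 (0 higher, 13 lower). At 20 to 30 kb 51 of 100 were higher and 10 lower, and at 30 to 50 kb 105 of 226 were higher and 31 lower. The median difference over all 4065 genes was -0.02. On the HMR scale 165 of the 171 higher genes stayed higher and 39 of the 67 lower genes stayed lower. Divided by the array's internal MAD, 121 of the 171 stayed higher, 48 lost the call and 2 turned lower, and 44 of the 67 stayed lower.

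The genes with the largest gains sat in a few blocks. NDI1 (YML120C), the internal NADH dehydrogenase of mitochondria, is read by 4 probes on chromosome 13 between 28459 and 29623, in the files' own coordinates (the sources used here name no genome build). Its Sir3 level was 3.11 and 3.57 in dot1, against 0.14 and 0.08 in DOT1, a difference of 3.23 ± 0.13 (SE; limma adjusted p = 5.83e-09). That was 95.2% and 88.8% of the HMR level in dot1, against 3.1% and 1.4% in DOT1. NAB6 (YML117W), which encodes an RNA-binding protein in the same block, stood at 2.85 and 3.20 in dot1, against 0.04 and 0.09 in DOT1 (chromosome 13, 34401 to 37405, 12 probes). At the other end of chromosome 13, GLC8, a regulator of the phosphatase Glc7, stood at 3.30 and 3.77 in dot1, against 0.43 and 0.37 in DOT1. Its neighbour ELP6, a subunit of Elongator, stood at 2.81 and 3.34 in dot1, against 0.08 and -0.17 in DOT1. All of these genes were near the array median in DOT1, and in dot1 they held from 79.7% (NAB6) to 100.8% (GLC8) of the HMR level.

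On the left arm of chromosome 2, PKC1 (YBL105C, 14550 to 17562, 13 probes), the protein kinase C of the cell wall integrity pathway, stood at 2.79 and 3.22 in dot1, against 0.30 and 0.32 in DOT1 (limma adjusted p = 5.83e-09). ATP1, the alpha subunit of the mitochondrial ATP synthase, stood at 2.50 and 2.73 in dot1, against 0.22 and 0.22 in DOT1. On chromosome 3, CDC39, the scaffold subunit of the Ccr4-Not complex, was read by 22 probes and stood at 3.05 and 3.66 in dot1, against 0.82 and 0.77 in DOT1. PKC1 and CDC39 are essential genes, and neither stood above 1 in steady pGPD-SIR3 cells (0.15 and 0.78) or in WT (0.10 and 0.56). LRE1 and MGR1, at 36.2 and 47.3 kb from the other end of that chromosome, rose by 2.33 and 2.25 on the log2 scale. RTG2, a sensor of the mitochondrial retrograde response on chromosome 7, rose by 2.38.

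The genes with the largest losses were bound in steady pGPD-SIR3 cells. YFR054C, on the right arm of chromosome 6, had 1.62 and 1.87 in dot1, against 4.30 and 4.88 in DOT1 (2 probes, 258982 to 259312). The placement of probes within genes was uncertain on chromosome 6, as described with the processing below. SEO1 (YAL067C), a member of the allantoate permease family on the left arm of chromosome 1, had 1.60 and 1.98 in dot1, against 3.94 and 4.81 in DOT1. The difference at SEO1 was -2.58 ± 0.39 (SE; limma adjusted p = 0.000137), and its steady pGPD-SIR3 mean was 6.02. GDH3 (YAL062W), an NADP-dependent glutamate dehydrogenase further in on the same arm, had 0.63 and 0.83 in dot1, against 2.76 and 3.40 in DOT1. JEN1, the lactate and pyruvate permease on chromosome 11, had 0.74 and 0.76 in dot1, against 2.75 and 2.75 in DOT1. GDH3 and JEN1 were down relative to HMR as well: 19.2% and 20.7% in dot1 for GDH3, against 60.1% and 57.9% in DOT1, and 22.5% and 18.9% in dot1 for JEN1, against 59.9% and 46.8% in DOT1. SEO1 had 48.9% and 49.3% in dot1, against 85.8% and 81.9% in DOT1.

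The other named losses were BDS1 (a sulfatase, -2.10), YDR541C (-2.0), YER186C (-1.93), YOR389W (-1.82), GIT1 (a permease for glycerophosphoinositol, -1.81) and AYT1 (an acetyltransferase, -1.81). GIT1 and YOR389W kept most of the level of a silent cassette. GIT1 had 96.7% and 88.0% of the HMR level in dot1, against 103.5% and 94.9% in DOT1, and its difference had an adjusted p of 0.304 by limma on the HMR scale. YOR389W had 84.8% and 73.4% in dot1, against 100.4% and 80.9% in DOT1, with an adjusted p of 0.212 by limma on that scale.

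**Figure D3:**
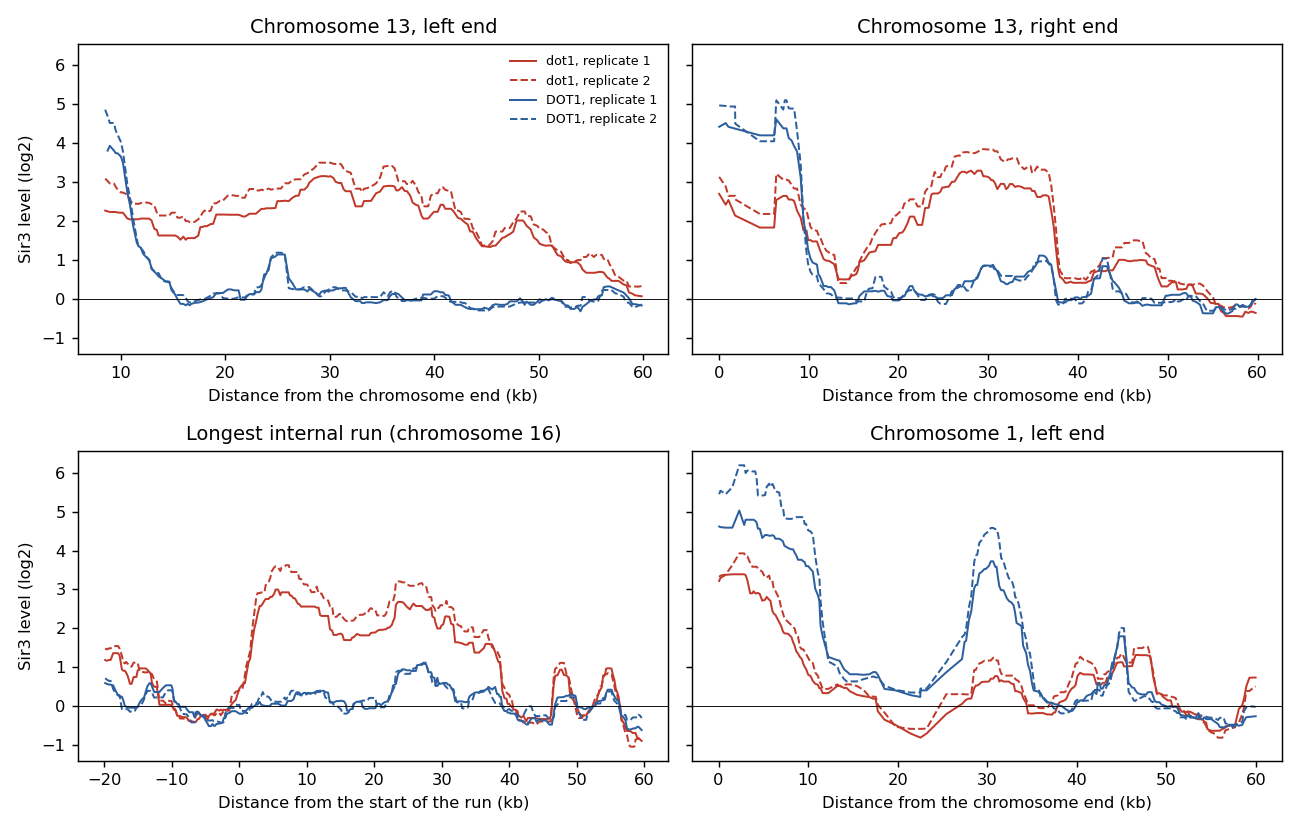
Running median of 5 probes of the Sir3 level (y axis) along 4 regions, with distance in kb on the x axis and 1 line per array: both ends of chromosome 13, the longest internal run of higher probes (on chromosome 16) and the left end of chromosome 1. In dot1 the level stays high over the gained blocks that hold NDI1, GLC8 and IQG1, where the DOT1 lines lie near 0, while on chromosome 1 the dot1 lines are the lower ones over the outermost genes and over GDH3.

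Within the SIR-rich ends the genotypes also differed in where Sir3 lay. Coding probes within 20 kb of an end held 1.80 and 2.15 in dot1, against 1.90 and 2.15 in DOT1 (274 probes), and the arrays overlapped. Intergenic probes in the same zone held 1.82 and 2.27 in dot1, against 3.08 and 3.73 in DOT1 (452 probes). Coding minus intergenic was therefore -0.03 and -0.12 in dot1, against -1.18 and -1.58 in DOT1. Taken over all 20 kb, genes and the gaps between them were nearly level in dot1, while in DOT1 the gaps held more Sir3. At 20 to 50 kb the same contrast was 0.18 and 0.13 in dot1, against -0.34 and -0.48 in DOT1. Neither contrast depends on the centring of the arrays, and each had the smallest exact permutation p of the design, 0.333. By distance, intergenic minus coding was -0.42 and -0.37 in dot1, against 0.26 and 0.43 in DOT1, within 5 kb (15 coding and 50 intergenic probes). At 5 to 10 kb it was 0.04 and 0.12 in dot1, against 0.47 and 0.75 in DOT1. At 10 to 15 kb it was -0.18 and -0.17 in dot1, against 1.23 and 1.67 in DOT1, and at 15 to 20 kb -0.38 and -0.29 in dot1, against 0.69 and 0.96 in DOT1. The dot1 arrays lay below the DOT1 arrays in each of these 4 bins, and below 0 in 3 of them. At 10 to 15 kb steady pGPD-SIR3 had 2.12 and 2.0 and WT 0.75 and 0.80. Nearer the ends steady pGPD-SIR3 had -0.13 and -0.09 within 5 kb, and 0.14 and 0.11 at 5 to 10 kb. Values near or below 0 in those outer bins were therefore not particular to dot1. WT had 0.21 and 0.70 within 5 kb and 0.83 and 1.40 at 5 to 10 kb.

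Over 50 kb from every end, 964 of 3664 genes were higher in dot1, with a median difference of 0.62, and 880 were lower, with a median of -0.41. The directions differed in size: 233 of the higher genes had a difference of 1 or more, and 13 of the lower genes a difference of -1 or less. The higher genes had a median level of 0.72 in dot1, against 0.04 in DOT1, 0.06 in steady pGPD-SIR3 and 0.04 in WT. On the HMR scale 860 of the 964 higher genes stayed higher and 641 of the 880 lower genes stayed lower. Divided by the internal MAD, 644 of the 964 stayed higher and 1 turned lower, and 379 of the 880 stayed lower.

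Few internal genes came near the level of a silent cassette. Above 75% of the array's HMR level on both arrays there were 6 in dot1 and 0 in DOT1 of 3664 internal genes, with 1 in steady pGPD-SIR3 and 0 in WT. Above 50% there were 59 in dot1 and 3 in DOT1, with 5 in steady pGPD-SIR3 and 1 in WT. 32 of the 59 lay below 10% of the HMR level on both DOT1 arrays. Within 50 kb of an end 94 genes in dot1 and 32 in DOT1 of 401 were above 50%, with 26 genes in both, and 38 in dot1 and 21 in DOT1 were above 75%. These counts were added after the values had been seen and carry no test.

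**Figure D4:**
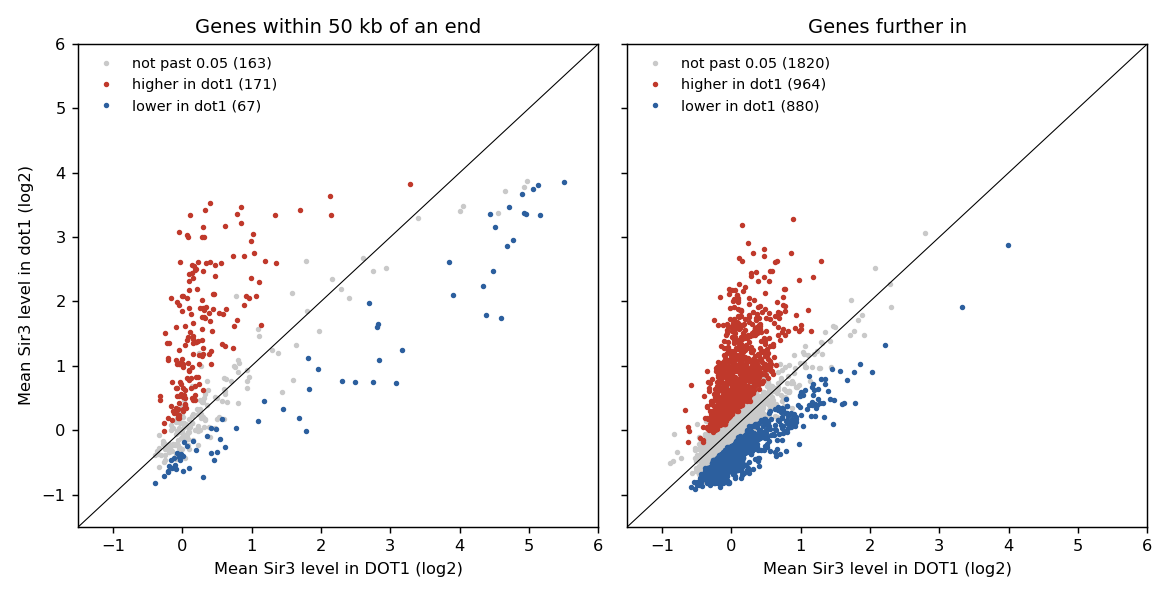
Mean Sir3 level per gene in dot1 (y axis) against the mean in DOT1 (x axis), within 50 kb of an end and further in, with genes higher or lower in dot1 coloured. 171 and 67 of 401 genes were higher and lower in the first panel, and 964 and 880 of 3664 in the second, where most of the higher genes stand at DOT1 levels near 0.

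IQG1 (YPL242C), the IQGAP protein of the cytokinetic ring, had the largest internal gain. Its 15 probes on chromosome 16 (90979 to 94931) gave 2.88 and 3.51 in dot1, against 0.09 and 0.21 in DOT1. The difference was 3.04 ± 0.15 (SE; limma adjusted p = 1.13e-08), which put the gene at 88.0% and 87.4% of the HMR level in dot1, against 2.0% and 3.6% in DOT1. Next to it SRP68, a subunit of the signal recognition particle, had 2.42 and 2.84 in dot1, against 0.11 and 0.21 in DOT1. HSP82, one of the Hsp90 chaperones, lay a few genes on and had 2.56 and 2.95 in dot1, against 0.30 and 0.32 in DOT1. The 3 genes belong to 1 stretch of 123 adjacent internal probes, 39.6 kb long (chromosome 16, 86661 to 126261), at which every tested probe was higher in dot1. Its mean level was 2.08 and 2.52 in dot1, against 0.28 and 0.28 in DOT1, and it held 14 tested genes.

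A second stretch ran over 88 probes and 27.5 kb of chromosome 14 (272218 to 299712) and held CHS1, a chitin synthase that repairs the septum. CHS1 (YNL192W) had 2.63 and 3.18 in dot1, against 0.20 and 0.29 in DOT1, in a stretch of 11 tested genes. DUG3, an enzyme of glutathione breakdown, had 2.59 and 3.03 in dot1, against 0.47 and 0.46 in DOT1. UBP10, the deubiquitinase of histone H2B, lay in it too, with 2.45 and 2.77 in dot1, against 0.64 and 0.61 in DOT1. Further stretches lay on chromosome 2 (63897 to 86563, 72 probes, 8 tested genes, led by NUP170), chromosome 1 (74602 to 92017, 63 probes, 7 tested genes, led by FUN12) and chromosome 12 (910508 to 930514, 62 probes, 8 tested genes, led by BDF1). The stretches were defined by the calls of their probes, so the calls of the genes in them are no separate result. BDF1, a bromodomain protein that binds acetylated histone H4, had 3.15 and 3.43 in dot1, against 0.90 and 0.86 in DOT1.

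These were the longest of 968 internal runs of adjacent higher probes. 216 runs held 10 probes or more and together spanned 1240.7 kb on all 16 chromosomes. Over all 36515 probes tested, 7726 were higher in dot1 (21.2%) and 6139 were lower (16.8%), which makes 38% of probes tested. With 25th percentile centring 10150 were higher and 3410 lower, and with any 1 array left out 3488 to 3684 were lower. Of the 964 higher internal genes, 513 (53.2%) had a higher gene as their next tested neighbour, beside 26.2% of all internal genes. Neighbouring genes are not independent, so this share is given without a test.

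Other named internal gains lay outside those 5 stretches. RPM2, the protein subunit of mitochondrial RNase P, rose by 2.56, and MSB2, a mucin-like sensor at the head of the filamentous growth pathway, rose by 2.24 on the log2 scale. MSB2 had 2.04 and 2.11 in dot1, against -0.15 and -0.19 in DOT1 (12 probes). TAF5, a subunit of TFIID and SAGA, and EDE1, an endocytic scaffold, each rose by 2.22, and SNT1, a subunit of the Set3 complex, rose by 2.16. These 5 genes lie on chromosomes 2, 3, 7 and 13.

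Internal gains went with gene length and with the gene body. Of protein-coding internal genes under 1 kb, 69 of 646 were higher and 234 lower, with a median difference of -0.21. Of those of 1 to 2 kb, 407 of 1857 were higher and 470 lower (median -0.07), and of those of 2 to 3 kb, 286 of 735 were higher and 115 lower (median 0.10). At 3 to 4 kb 116 of 238 were higher and 31 lower (median 0.20), and over 4 kb 85 of 165 were higher and 20 lower (median 0.25). The share of higher genes thus went from 10.7% in the shortest class to 51.5% in the longest. Across 3641 genes the Spearman correlation of length with the difference was 0.33, that of length with the dot1 level 0.18 and that with the DOT1 level -0.14. With the level in steady pGPD-SIR3 it was 0.08, and with that in WT -0.03. Genes are not independent replicates, and longer genes are read by more probes. On the HMR scale the order of the medians was unchanged, with 59 of 646 genes higher and 175 lower in the shortest class and 78 of 165 higher and 24 lower in the longest.

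In genes over 2 kb the gain was largest in the middle of the gene body. Over genes longer than 4 kb, the mean difference was 0.54 in the fifth of 10 equal parts and 0.30 in the first. In the fifth part the level was 0.41 and 0.51 in dot1, against -0.13 and -0.04 in DOT1. Steady pGPD-SIR3 stood at 0.08 and 0.09 there, above the DOT1 arrays after release, and WT at 0.08 and -0.05. Genes of 2 to 4 kb had their largest difference, 0.37, in the sixth part, and 0.13 in the first. Genes of 1 to 2 kb had their largest mean difference, 0.065, in the eighth part, and genes under 1 kb had a mean below 0 in each of the 10 parts, from -0.21 to -0.12.

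**Figure D5:**
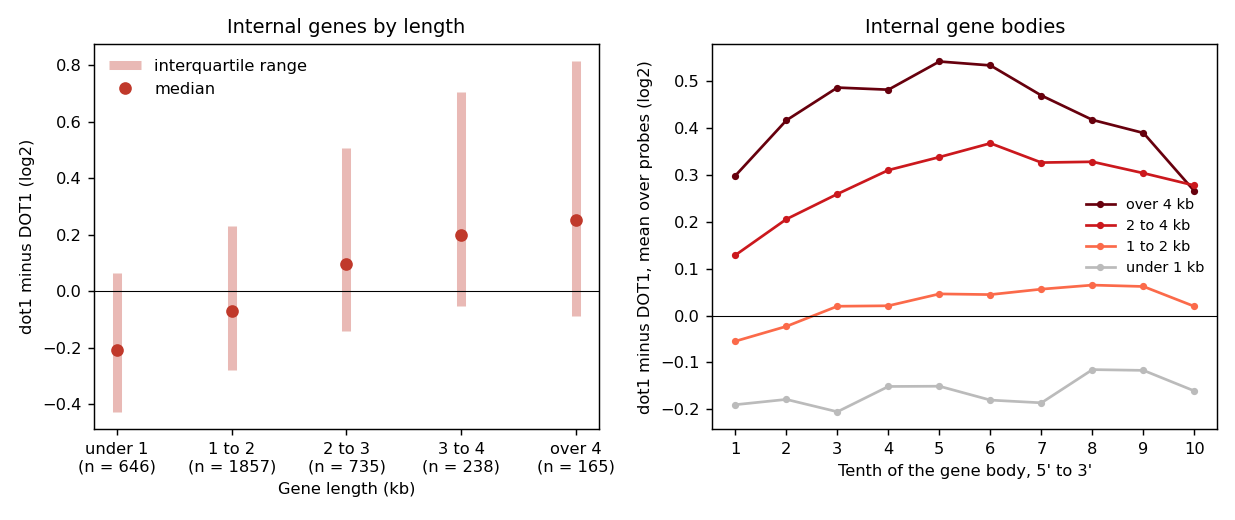
Internal genes by length: the difference dot1 minus DOT1 per gene by length class (points are medians, bars interquartile ranges), and its mean along 10 equal parts of the gene body (x axis) in each class. Genes under 1 kb have a median of -0.21 and those over 4 kb a median of 0.25, and the curve of the longest class peaks at 0.54 in the fifth part.

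The gaps between internal genes behaved differently from the genes. Over 17715 internal coding probes the mean level was 0.19 and 0.19 in dot1, against 0.02 and 0.02 in DOT1. Over 1493 probes between divergent genes, where promoters face each other, it was -0.02 and -0.01 in dot1, against 0.21 and 0.20 in DOT1. Coding minus divergent was thus 0.21 and 0.20 in dot1, against -0.19 and -0.18 in DOT1, a contrast free of the centring whose exact permutation p was the smallest possible, 0.333. The same contrast was 0.03 and -0.01 in steady pGPD-SIR3 and 0.13 and -0.09 in WT, so both pairs lay between the 2 genotypes after release. In probe calls, 25.7% of internal coding probes were higher and 10.2% lower, while 8.77% of divergent intergenic probes were higher and 29.9% lower. Probes between tandem genes were in between, with 12.6% higher and 21.7% lower, and probes between convergent genes had 17% higher and 17.8% lower.

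The largest internal losses were smaller and lay in genes with some Sir3 in DOT1. YFR018C, with 4 probes on chromosome 6, had 1.90 and 1.93 in dot1, against 3.10 and 3.54 in DOT1. It held 3.89 in WT too, and on the HMR scale its difference had an adjusted p of 0.29 by limma. ECM11, a meiotic gene, had 0.40 and 0.46 in dot1, against 1.70 and 1.87 in DOT1 (-1.36 ± 0.10, SE; limma adjusted p = 2.97e-07). CRC1, the mitochondrial carnitine carrier, had 0.44 and 0.40 in dot1, against 1.64 and 1.62 in DOT1. OLE1, the fatty acid desaturase, had -0.21 and -0.21 in dot1, against 1.02 and 0.93 in DOT1, where its level in steady pGPD-SIR3 was 0.05. YIG1 fell by 1.13 and YMR244W by 1.12 on the log2 scale, YMR244W without a call on the HMR scale (limma adjusted p = 0.136).

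The SIR3 gene itself, which lies 55.8 kb from its end on chromosome 12 and is driven by the GPD promoter in these strains, held 2.72 and 3.02 in dot1, against 3.73 and 4.25 in DOT1. The fall was 1.12 ± 0.17 (SE; limma adjusted p = 0.000136), but as a share of the HMR level the gene stood at 83.1% and 75.2% in dot1, against 81.2% and 72.4% in DOT1, where the sign of the difference turned. WT arrays held 0.25 on average there. PPR1, labelled as deleted in both strains, had a difference of 0.10 with an adjusted p of 0.273 by limma. Of its 12 probes 11 and 11 were measured on the dot1 arrays, against 10 and 10 on the DOT1 arrays, so that the probes do not show this deletion either.

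Ribosomal protein genes, short and among the most transcribed of the genome, were lower as a group. 43 of 60 tested were lower, beside 23.3% of all genes and 36.2% of internal genes under 1 kb, and 0 were higher, by limma, with 0 higher also at an unadjusted p under 0.05. The median difference was -0.64, beside -0.02 over all genes. RPL10 had 0.05 and 0.13 in dot1, against 1.53 and 1.40 in DOT1, the largest fall of the list (-1.37 ± 0.16, SE; limma adjusted p = 1.6e-05). RPL28 had 0.15 and 0.66 in dot1, against 1.62 and 1.56 in DOT1, and RPL34A had -0.50 and -0.16 in dot1, against 0.88 and 0.71 in DOT1. Mean levels in steady pGPD-SIR3 were 0.80 at RPL10, 0.88 at RPL28 and -0.08 at RPL34A. In WT they were 0.74, 0.43 and 0.15. At each of these genes both means lay below the DOT1 arrays after release. On the HMR scale 21 of the 60 were lower and 0 higher, and with quantile normalization 43 were lower and 0 higher. Many of these genes have near-identical copies that 1 probe can read together.

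Genes of glycolysis and translation elongation, also highly transcribed, were lower in 8 of 11 and higher in 0, with 0 higher at an unadjusted p under 0.05 (median -0.57). Over all genes 23.3% were lower and 27.9% higher. FBA1, the aldolase, had 0.33 and 0.64 in dot1, against 1.26 and 1.24 in DOT1. ENO2, an enolase, fell by 0.74 and TDH3, a glyceraldehyde phosphate dehydrogenase, by 0.73 on the log2 scale. Divided by the HMR level, 0 of the 11 were called in either direction.

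Most other lists of the genome's interior had members on both sides. Over all genes tested 27.9% were higher and 23.3% lower, and each list count is to be read beside those shares. Meiotic genes were lower in 7 of 15 and higher in 2 (median -0.27). HOP1 and ZIP1, parts of the chromosome axis and the synaptonemal complex, fell by 0.86 and 0.79, and the meiotic cohesin REC8 fell by 0.77. Sulfur metabolism genes were lower in 6 of 12 and higher in 1 (median -0.39). MHT1, near an end, fell by 1.24 and lost its call on the HMR scale (limma adjusted p = 0.747). STR3, a cystathionine lyase, had -0.45 and -0.65 in dot1, against 0.47 and 0.32 in DOT1. Heat and stress genes were higher in 6 of 10 and lower in 2 (median 0.33). Quantile normalization gave 3 higher and 1 lower with a median of -0.05, and division by the internal MAD 4 and 0 with a median of -0.17. HSC82, the other Hsp90, had 1.70 and 1.94 in dot1, against 0.53 and 0.55 in DOT1, and HSP104, the disaggregase, rose by 0.92.

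Of 8 housekeeping genes 4 were higher and 0 lower by limma, with 1 lower at an unadjusted p under 0.05. Beside this and the next lists stand 27.9% higher and 23.3% lower over all genes. The mating and galactose counts below are not read as results about those lists. With quantile normalization and with division by the MAD 1 of the 8 was higher and 0 lower. TUB2, the beta tubulin, had 2.38 and 2.38 in dot1, against 1.28 and 1.09 in DOT1, a rise that lost its call under division by the MAD (limma adjusted p = 0.423). TUB1 rose by 0.67 and lost its call under quantile normalization (limma adjusted p = 0.218). ACT1, actin, rose by 0.63, though its sign turned under quantile normalization (-0.07) and under division by the array's MAD (-0.58). Of 9 haploid mating genes 2 were higher (STE3 by 0.77 and STE12 by 0.62) and 1 lower (BAR1, -0.70). The call at STE3 was lost under quantile normalization and division by the MAD (limma adjusted p = 0.206 and 0.153). Of 6 galactose genes 1 was higher and 2 were lower. GAL2 and GAL80 fell by 0.45 and 0.24, GAL80 without a call under 3 scalings (HMR, quantile and MAD), and GAL10 rose by 0.18 with a sign that turned under quantile normalization (-0.04) and under division by the MAD (-0.13).

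Genes of the H3K79 and H2B ubiquitylation pathway were higher in 4 of 10 and lower in 2 (median 0.06), close to the 27.9% and 23.3% over all genes. Besides UBP10, BRE1, the ubiquitin ligase for histone H2B, had 1.47 and 1.49 in dot1, against 0.27 and 0.33 in DOT1. CTR9, a subunit of the Paf1 complex, had 0.95 and 1.11 in dot1, against -0.07 and 0.09 in DOT1. Genes of the SIR complex and the telomere were higher in 6 of 12 and lower in 3 (median 0.17). SIR1, whose protein helps to recruit the complex to the silent cassettes, had 1.61 and 1.91 in dot1, against 0.28 and 0.28 in DOT1. ABF1, a silencer-binding factor, rose by 0.92, and SIR2 had 0.80 and 0.93 in dot1, against 0.25 and 0.15 in DOT1. The call at SIR2 was lost under quantile normalization and division by the MAD (limma adjusted p = 0.149 and 0.0992), under which 3 of the 12 genes were higher. Of 8 loci altered in strains of the study, 3 were higher, among them ADE2 by 0.43, and 1 (SIR3) was lower, and with division by the MAD 0 were higher and 3 lower.

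Subtelomeric gene families had falls near the ends. Over all genes tested 27.9% were higher and 23.3% lower, and within 50 kb of an end 42.6% were higher and 16.7% lower. Of 3 COS genes 2 were lower and 0 higher by limma, with 3 lower at an unadjusted p under 0.05. Quantile normalization turned the list, with 2 higher, 1 lower and a median of 0.56. COS9 had 0.62 and 0.88 in dot1, against 2.36 and 2.61 in DOT1, while the fall of 1.33 at COS10 turned to a rise under quantile normalization (0.56) and division by HMR (0.06). Sugar transport and breakdown genes were lower in 5 of 10 and higher in 0, with 1 higher at an unadjusted p under 0.05. IMA5, an isomaltase on chromosome 10, had -0.09 and 0.07 in dot1, against 1.72 and 1.85 in DOT1. HXK1, a hexokinase, had 1.95 and 2.24 in dot1, against 3.71 and 4.10 in DOT1, a fall that lost its call on the HMR scale (limma adjusted p = 0.059). IMA1 fell by 1.00. Flocculin genes, which encode cell surface adhesins, were lower in 4 of 5 and higher in 0, also at an unadjusted p under 0.05. FLO9 had 0.19 and 0.46 in dot1, against 1.25 and 1.66 in DOT1, and FLO1 and FLO5 fell by 0.88 and 0.67. On the HMR scale 1 of the 5 was lower, with division by the MAD 2, and with quantile normalization 0.

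Of 3 AAD genes, which encode putative aryl-alcohol dehydrogenases, 2 were lower. Here too the shares over all genes were 27.9% higher and 23.3% lower. AAD6 fell by 1.20 and lost its call on the HMR scale (limma adjusted p = 0.0664). The fall of 1.25 at AAD3 turned to a rise under quantile normalization (0.35) and division by HMR (0.05). Iron uptake genes were higher in 2 of 12 and lower in 4: FRE5, a ferric reductase, had 1.20 and 1.37 in dot1, against 0.45 and 0.14 in DOT1, whereas ENB1 fell by 1.19. The rise at FRE5 lost its call under quantile normalization (limma adjusted p = 0.0824), where 0 of the 12 were higher and 2 lower. The fall of 1.09 at ARN2 turned to a rise under quantile normalization (0.39) and division by HMR (0.07). Phosphate genes were higher in 1 of 6 and lower in 2: PHO84, the high-affinity transporter on the left arm of chromosome 13, had 2.41 and 2.86 in dot1, against 1.14 and 1.24 in DOT1. That rise lost its call under division by the MAD (limma adjusted p = 0.455). PHO5 and PHO3, which encode acid phosphatases and lie deep in chromosome 2, fell by 0.94 and 0.81, PHO3 without a call on the HMR scale (limma adjusted p = 0.0785). Of 3 PAU, DAN and TIR genes 1 was lower (TIR3, -0.91). Probes of these families can read several copies at once. No gene of the histone list (9 genes) or the silent mating list (4 genes) was tested, since too few of their probes lay inside the gene and were measured on all 19 arrays.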

How the data were processed

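Per the labels, anti-Sir3 precipitates were labelled with Cy5 and whole cell extracts with Cy3 after amplification, and hybridised together. The deposited files give the ratio of precipitate to extract per probe, not rescaled between arrays; the scanner, spot filter and build are not stated there. The log2 of the deposited ratio was centred on each array's median over chromosomal probes. Genes were named from RefSeq and averaged over probes at least 100 bp inside them (450 bp at the upper side on chromosomes 10 and 11, whose probe positions lay off the annotation), with at least 2 probes, and zones with at least 3. The shift that best matched probes to coding positions was 275 and 225 bp on those chromosomes (correlation 0.18 and 0.22). On chromosome 6 it was -375 bp, at a weaker correlation of 0.10, and the margin was not widened there. Whether probes of chromosome 6 lie inside the genes named is therefore uncertain. Only probes measured on all 19 arrays (36515, 88.0%) entered. limma 3.58.1 in R 4.3.3 fitted all 19 arrays with 1 mean for each of 11 groups (8 residual and 4.34 prior degrees of freedom). Values per array were compared by two-sided exact permutation tests.

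Tested on simulated data, limma recovered 98% and 100% of genes changed by 1 and 2 on the log2 scale, 60% and 86.7% of zones, and 86% and 100% of probes. It also called 13 unchanged genes, 0 zones and 12 probes. At each size 100 genes, 15 zones and 100 probes were changed, with independent noise and no difference in array scale. The real data differ in these respects, so the shares do not measure the accuracy of the calls above. Named genes were the 10 largest rises and falls within and beyond 50 kb whose arrays did not overlap, at most 2 per arm, the 3 largest changes in each of 20 lists, and fixed loci. The members and lists were chosen with earlier results of these data known. Alternatives varied scaling, centring, the arrays fitted, probe and margin minimums and the covering level. Array values have no count behind them, so the number of arrays limits the precision.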

Additional observations from a re-analysis of the deposited data

How the results depend on the processing

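The 2082 gene calls became 1337 (801 higher, 536 lower) with levels divided by the array's internal MAD and 1094 (658 and 436) with quantile normalization, and the 13865 probe calls became 8892 and 6878. Centring on the 25th percentile gave 1923 gene calls, 1517 higher and 406 lower (78.9% higher, against 54.5%), with the median of all genes at 0.14 in place of -0.02. It gave 10150 higher and 3410 lower probes, and 44 and 44 zones in place of 34 and 49. Zones divided by the HMR level, an alternative added after the data had been seen, gave 47 higher and 31 lower, and zones divided by the MAD 27 and 69. Genes with at least 4 probes were 929 higher and 504 lower. Leaving out 1 array gave 1540 to 1593 genes, 9260 to 9645 probes and 54 to 83 zones. Lower genes then numbered 574 to 630 in place of 947 and lower probes 3488 to 3684 in place of 6139, whichever array was left out. Lower zones numbered 22 without DOT1 array 2 and 26 without dot1 array 1. The pair of array numbers could not be shown to pair samples (deviations correlated at 0.22 over probes and 0.13 over genes). With them as a replicate block, the 4 NAM arrays gave 2475 genes, 20636 probes and 109 zones, and without the block 2428, 18789 and 82, which the 7 arrays of the later deposit also gave since its other groups have 1 array each.

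The covered length was longer in dot1 by 12 kb, but shorter by 59 kb (-59) at 4 scaled MADs, and ranged from -17 to 41 kb with 1 array left out (negative without dot1 array 2 or DOT1 array 1). The internal share covered differed by -0.74 percentage points, by 6.38 at a level of 1, and by -1.55 to 0.0742 with 1 array left out. The exact p could not pass 0.05 for any of these. The difference between tandem genes turned to 0.062 under 25th percentile centring. Between convergent genes it turned to 0.14 under that centring and 0.0050 on the HMR scale, and ranged from -0.045 to 0.0087 with 1 array left out. For coding probes within 20 kb it turned to 0.11 under that centring and 0.15 on the HMR scale, and ranged from -0.23 to 0.12. For intergenic probes at 20 to 50 kb it turned to -1.41 in MAD units and ranged from -0.033 to 0.19. Over 98 named genes and zones, 1572 of 1679 recomputed values kept direction and call, 95 lost the call, 1 gained it and 11 changed sign. Those 11 were AAD3 (0.35 quantile, 0.049 HMR), ACT1 (-0.58 MAD, -0.074 quantile), ARN2 (0.39 quantile, 0.070 HMR), COS10 (0.56 quantile, 0.062 HMR), GAL10 (-0.13 MAD, -0.039 quantile) and SIR3 (0.024 HMR). The cause was not tested.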

Other observations

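Runs of adjacent lower probes inside the chromosomes were chosen after their values had been seen and carry no test. There were 1502 such runs, and 117 held 10 probes or more. The longest, of 45 probes over 14.1 kb of chromosome 9 (329953 to 344042), ran from PDR11 to NAS2 and held the cell wall gene TIR3. Its mean level was -0.71 and -0.67 in dot1, against -0.01 and 0.01 in DOT1. A run of 36 probes on chromosome 12 (281117 to 290885), from RFU1 to GAL2 with RPL10 in it, held -0.37 and -0.42 in dot1, against 0.44 and 0.39 in DOT1. A run of 29 probes on chromosome 7 (433719 to 442518), with RPL24A and RPL30, held -0.28 and -0.29 in dot1, against 0.70 and 0.69 in DOT1.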
